A study of Mus musculus with 6 samples.

Results

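The collagen genes outside the basement membrane family were measured by RNA-seq in bulge SCs, the stem cells that reside in the permanent lower part of the hair follicle. Members were chosen by name alone, as every gene whose symbol consists of Col, a type number, the letter a and a chain number. The 9 chains of the basement membrane and its anchoring structures were left out (Col4a1 to Col4a6, Col7a1, Col17a1 and Col18a1), which left 35 members among the 43274 genes of the table. Cells positive for CD34 and with high α6 integrin were isolated by FACS from the epidermis of mice at postnatal day 21, after the dermis had been removed. The 3 control libraries came from mice labelled ILK +/-, with 1 floxed Ilk allele, and the 3 ILK-K5 libraries from mice labelled ILK -/-, with both alleles floxed. Both groups carried the K5-Cre transgene, in which the keratin 5 promoter drives Cre recombinase in the keratinocytes of the epidermis and its appendages, so that the controls had a single functional Ilk allele in these cells. Control mice were littermates, on a mixed background of C57Bl6 and 129/Sv.

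ILK, integrin-linked kinase, is an adaptor that connects β1 integrins to the actin cytoskeleton, and the study asked what bulge SCs need it for. Collagens are proteins of 3 chains wound into a triple helix. Fibril-forming collagens (types I, II, III, V, XI, XXIV and XXVII) assemble into the fibers of the interstitial matrix, and fibril-associated collagens (types IX, XII, XIV, XVI and others) decorate or connect these fibers. Type VI forms beaded microfilaments and type VIII open networks, while types XIII, XXIII and XXV span the plasma membrane. In skin, interstitial collagens are made mostly by dermal fibroblasts, and epithelial cells face them across the basement membrane.

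Reads counted on genes numbered 8228019 to 11969072 per library, and 1 read equalled 0.726 to 1.52 normalized counts (reads divided by the size factor of the library). Mitochondrial genes took 11.5% to 27.6% of the reads. The Ilk gene did not serve as a check of the genotypes, because 89.7% of its exon bases also lie in exons of other genes, mainly Taf10 on the opposite strand. Its normalized counts ranged from 10.6 to 38.5 in control and from 14.8 to 30.9 in ILK-K5 libraries. Labels do not say that the libraries came from separate mice, so that p-values measure the spread between these libraries, which may in part be technical. In sorted populations, fewer cells of a type and less RNA per cell cannot be told apart.

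Of the 35 collagen genes, 20 reached a mean of 10 normalized counts over the 6 libraries and were tested with limma. The other 15 stayed low in both genotypes, with means over the 6 libraries of 0.862 (Col13a1) to 9.55 (Col6a5) normalized counts. They were Col2a1, Col11a1 and Col11a2 of the fibril-forming class, Col9a1, Col9a2, Col19a1 and Col20a1 of the fibril-associated class, Col6a4 to Col6a6, the network-forming Col10a1, the transmembrane Col13a1 and Col25a1, and Col26a1 and Col28a1. Their highest value in any library was 49.2 normalized counts (Col6a5 in control library 1) and their highest FPKM, the measure per kilobase of gene length, was 0.639 (Col9a2). Type I, III, V, VI, VIII, XII and XVI chains carried most of the collagen signal, and 12 members in control and 13 in ILK-K5 had a mean FPKM of at least 1.

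In control bulge SCs the most abundant member was Col12a1, a fibril-associated collagen, with a mean of 13.8 ± 3.88 FPKM (SD, n = 3). Col8a1 and Col8a2, which encode the chains of the network collagen VIII, followed with 9.93 ± 7.73 and 8.56 ± 1.03 FPKM. Next came Col6a1 (7.47 ± 1.89 FPKM), Col1a1 (6.69 ± 0.807) and Col5a2 (6.65 ± 1.93). These neighbours in rank did not differ beyond their spread, since the library values of each overlapped those of the next, also between Col12a1 and Col8a1. The overlap of Col8a1 with Col12a1 and with Col8a2 rested on control library 2. Col8a1 held 18.9 FPKM in that library, against 5.40 and 5.54 in control libraries 1 and 3. Col5a1 (3.30 ± 1.57 FPKM) and Col6a2 (3.25 ± 1.28 FPKM) completed the 8 highest. They overlapped each other, and all Col5a1 libraries lay below those of Col5a2. In ILK-K5 the order by mean FPKM was Col12a1 (27.6 ± 3.37), Col1a1 (12.1 ± 1.77), Col5a2 (7.42 ± 1.75), Col3a1 (7.29 ± 3.53) and Col6a1 (6.996 ± 3.05). Here all libraries of Col12a1 lay above all libraries of every other member, and those of Col1a1 above those of Col5a2, while Col5a2, Col3a1 and Col6a1 overlapped. Col3a1 moved from rank 14 to rank 4, Col6a3 from 21 to 12 and Col5a3 from 31 to 14, and Col8a2 from rank 3 to rank 11.

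**Figure D1:**
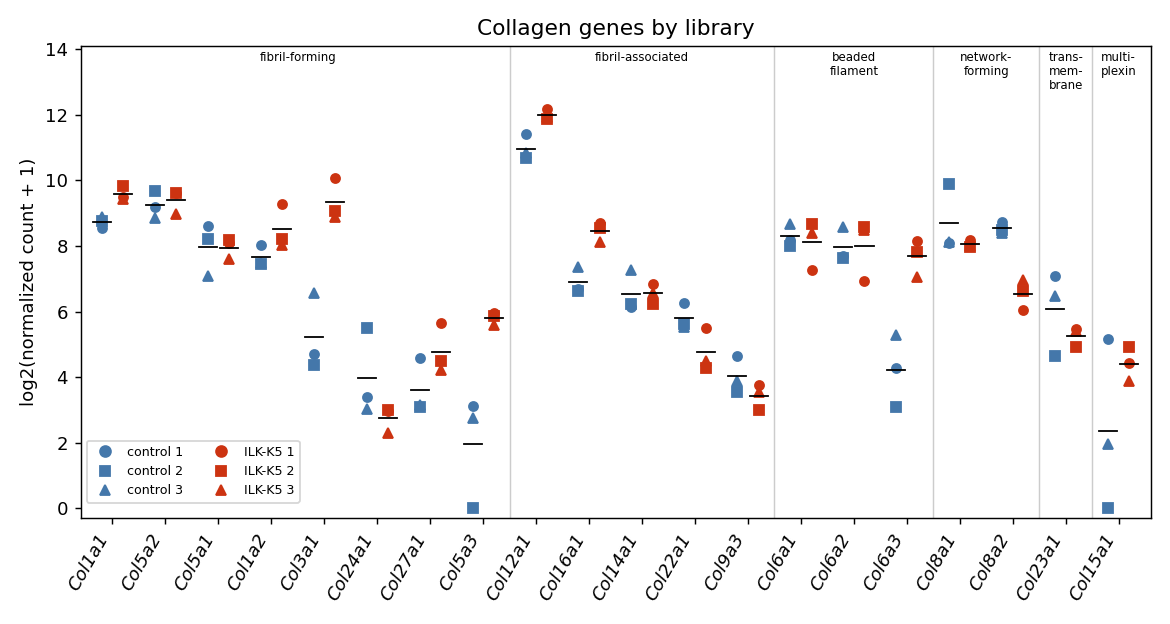
Log2(normalized count + 1) of the 20 tested collagen genes, one point per library (blue, control; red, ILK-K5; the symbol marks the replicate number) and a line at the mean of each genotype, grouped by structural class. Col3a1, Col6a3, Col5a3 and Col16a1 lie higher and Col8a2 lower in all 3 ILK-K5 libraries, while Col5a1, Col5a2, Col6a1 and Col6a2 overlap.

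Comparing ILK-K5 with control, 5 of the 20 tested collagen genes passed an adjusted p-value of 0.05 (limma, Benjamini-Hochberg adjustment over all 16368 genes tested, two-sided), where 3.53% of all genes did. Col3a1, Col6a3, Col5a3 and Col16a1 were higher, against 2.93% of all genes that were higher, and Col8a2 was lower, against 0.599% of all genes. An unadjusted p-value under 0.05 was found for 7 members, the other two being Col12a1 and Col1a1. The libraries of the genotypes did not overlap for 10 of the 20 members, compared to 17.9% of all genes tested. The log2 fold change was positive for 12 and negative for 8 members, with a median of 0.09 compared to 0.005 over all genes tested. Col5a3 (mean of 4.51 normalized counts in control) passed the filter only through ILK-K5, and Col24a1 (5.89 in ILK-K5) only through control. The signs of these genes were thus fixed by the filter. Of the 9 left-out basement membrane collagens, all 9 were tested and 0 were called by limma, with 0 at an unadjusted p-value under 0.05, 0.10 as their median log2 fold change and 1 gene without overlap.

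Col3a1, which encodes the only chain of the fibril-forming type III collagen of extensible tissues, was far higher in ILK-K5. Control libraries 1 to 3 held 25.1, 19.8 and 94.3 normalized counts, and ILK-K5 libraries 1 to 3 held 1086, 536.0 and 472.4. Every ILK-K5 library thus lay several-fold above the highest control library. The log2 fold change was 4.13 (SE 0.59, adjusted p = 0.0045 by limma), a 17.5-fold higher level with a 95% interval of 2.80 to 5.45 on the log2 scale. It ranged from 3.71 without control library 2 to 4.81 without control library 3. Col3a1 remained called when any 1 of the 6 libraries was left out (adjusted p = 6.82e-04 to 0.0348) and under all 12 other alternatives. Within replicates 2 and 3 alone the log2 fold change was 3.502 (adjusted p = 0.0458).

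On chromosome 1, Col3a1 spans bases 45311538 to 45349706 of the plus strand (GRCm38). Its neighbour Col5a2 lies on the opposite strand, with its 3′ end 24614 bases beyond the 3′ end of Col3a1. Col5a2 encodes the α2 chain of type V collagen, which co-assembles with type I in fibrils. Col5a2 had normalized counts of 579.9, 819.6 and 465.1 in control and 786.7, 790.5 and 505.5 in ILK-K5, with overlapping genotypes. Its log2 fold change was 0.17 with an interval of -0.53 to 0.87 (adjusted p = 0.919), which does not reach the interval of Col3a1. Of the exon bases of Col3a1, 1.44% lie in exons of another gene, Gm47302, and of those of Col5a2 none do.

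Col6a3, which encodes the α3 chain of the beaded filament collagen VI, held 18.3, 7.60 and 38.5 normalized counts in the control libraries. In ILK-K5 it held 283.5, 225.2 and 133.4, again without overlap. It was 10.97-fold higher (log2 fold change 3.45, SE 0.59, adjusted p = 0.0128, limma). The call was lost without ILK-K5 library 1 (adjusted p = 0.0601, log2 fold change 3.22) or library 2 (0.0722, log2 fold change 3.38), and within replicates 2 and 3 alone (0.0898, log2 fold change 3.24).

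Type VI collagen is built from α1, α2 and a further chain, which is most often α3. Col6a1 and Col6a2, which lie 85161 bases apart on chromosome 10, did not follow Col6a3. Col6a1 had 292.3, 255.5 and 410.0 normalized counts in control and 153.7, 405.7 and 337.0 in ILK-K5 (log2 fold change -0.18, interval -1.08 to 0.72, adjusted p = 0.936). Col6a2 had 208.4, 199.2 and 383.1 in control and 120.7, 381.0 and 354.6 in ILK-K5 (log2 fold change 0.01, interval -1.07 to 1.09, adjusted p = 0.998). In both genes ILK-K5 library 1 was the lowest of all 6 libraries, whereas Col6a3 was highest in that library. The alternatives to α3, Col6a4, Col6a5 and Col6a6, form a cluster on chromosome 9 and were too low to be tested. Col6a4 held 31.8, 3.04 and 4.35 normalized counts in control and 2.28, 0.771 and 2.92 in ILK-K5. Col6a6 held 19.3, 6.08 and 7.26 in control and 3.42, 3.86 and 3.90 in ILK-K5. In normalized counts all ILK-K5 libraries of both genes lay below all control libraries, but not in reads, where control library 2 held 2 and 4 and the highest ILK-K5 libraries 3 and 5.

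Col5a3 encodes a rarer chain of type V collagen. Its control libraries held 7.72, 0 and 5.80 normalized counts (8, 0 and 8 reads, where 0 reads allow up to 4.56 normalized counts). In ILK-K5 there were 61.5, 57.1 and 46.8, all above control. On the log2(normalized count + 1) scale the difference was 3.84 (SE 0.87, 14.3-fold, adjusted p = 0.0479, limma), near the limit of the call. Leaving out control library 2, which had no read, lowered it to 2.86 (adjusted p = 0.0517). Without ILK-K5 library 1, 2 or 3 the adjusted p was 0.163, 0.209 or 0.172 at log2 fold changes of 3.76, 3.81 and 3.95, without control library 1 or 3 it was 0.0239 or 0.0464, and with replicates 2 and 3 alone it was 0.0807 at a log2 fold change of 4.34. It was also lost with a pseudocount of 0.1 (log2 fold change 5.04, adjusted p = 0.174) and in edgeR (3.47, adjusted p = 0.0595). The size of the change depended on the setting, from 2.54 with FPKM values to 5.04.

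Col16a1 encodes a fibril-associated collagen that occurs near basement membranes in skin. Control libraries held 103.2, 97.3 and 164.0 normalized counts and ILK-K5 libraries 412.1, 374.8 and 276.6, without overlap. The difference of 2.94-fold (log2 fold change 1.56, SE 0.33) passed at an adjusted p = 0.0346 in limma. With 1 library fewer it was called only without control library 3 (adjusted p = 0.0216). The adjusted p was 0.0694 and 0.129 without control libraries 1 and 2, and 0.136, 0.180 and 0.0898 without ILK-K5 libraries 1, 2 and 3, while the log2 fold change stayed between 1.42 and 1.73. Within replicates 2 and 3 alone it was 0.157, at a log2 fold change of 1.34, and with FPKM values 0.0707.

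Col8a2 was the only member called lower. It encodes the α2 chain of type VIII collagen, a short-chain collagen best known from subendothelial matrices and Descemet's membrane of the cornea. Normalized counts were 425.5, 358.9 and 339.6 in control and 64.9, 97.9 and 124.7 in ILK-K5, so that even the highest ILK-K5 library stayed well below the lowest control library. The level was 3.996-fold lower (log2 fold change -1.998, SE 0.33, interval -2.75 to -1.25, adjusted p = 0.0110, limma). All 12 alternatives with other settings kept the call, replicates 2 and 3 alone among them (log2 fold change -1.65, adjusted p = 0.0415). Leaving out control library 2 (adjusted p = 0.0548, log2 fold change -2.03) or ILK-K5 library 2 (0.0515, log2 fold change -2.04) lost it.

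Its partner chain Col8a1 held 269.2, 939.7 and 275.7 normalized counts in control and 291.5, 249.1 and 253.3 in ILK-K5. Control library 2 stood apart from the 5 others, which lay between 249.1 and 291.5. The log2 fold change of Col8a1 was -0.64 (SE 0.47, adjusted p = 0.730), and -0.05 without control library 2.

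The descriptions of the libraries carry a code that is shared by replicates 2 and 3 of both genotypes and differs from that of both first replicates, and its meaning is not given. With a term for this code all 5 calls held (adjusted p = 0.0015 for Col3a1, 0.0026 for Col8a2, 0.0040 for Col6a3, 0.0119 for Col16a1 and 0.0155 for Col5a3). Differences between the first replicates, a single library of each genotype, were, on the log2 scale, 5.38 for Col3a1, 3.88 for Col6a3, 2.84 for Col5a3, 1.99 for Col16a1 and -2.69 for Col8a2, in the direction of the other replicates. Col12a1 and Col1a1 passed with this term as well (adjusted p = 0.0165 and 0.0456).

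**Figure D2:**
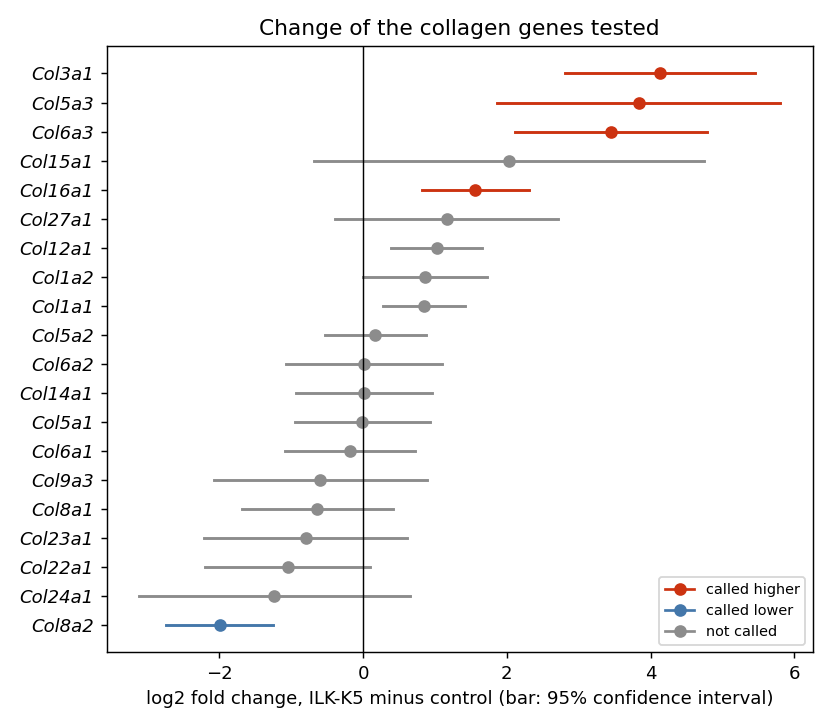
Log2 fold change of ILK-K5 over control for the 20 tested collagen genes with its unadjusted 95% confidence interval from limma; red (higher) and blue (lower) members passed an adjusted p-value of 0.05 over all genes tested, and grey ones did not. Colored points lie at 4.13 for Col3a1, 3.84 for Col5a3, 3.45 for Col6a3, 1.56 for Col16a1 and -1.998 for Col8a2.

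To show the sequence that precedes the genes that changed, the 150 bases before the RefSeq start of each of the 5 called members are given, 5′ to 3′ on the strand of the gene (RefSeq, GRCm38.p6). Capitals mark CCAAT, the core of the CCAAT box, and GGGCGG, the core of the GC box, each searched on both strands, so that the reverse complements appear as ATTGG and CCGCCC. Col3a1 lies at chr1:45311388-45311537 (+), Col6a3 at chr1:90843972-90844121 (-), Col5a3 at chr9:20815068-20815217 (-), Col16a1 at chr4:130047690-130047839 (+) and Col8a2 at chr4:126286644-126286793 (+).
Col3a1: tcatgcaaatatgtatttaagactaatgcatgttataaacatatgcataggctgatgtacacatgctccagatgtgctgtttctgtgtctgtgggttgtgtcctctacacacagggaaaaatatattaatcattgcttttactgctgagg
Col6a3: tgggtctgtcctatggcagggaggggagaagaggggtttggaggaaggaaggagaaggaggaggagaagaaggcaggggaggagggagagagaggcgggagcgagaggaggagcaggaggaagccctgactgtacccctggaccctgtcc
Col5a3: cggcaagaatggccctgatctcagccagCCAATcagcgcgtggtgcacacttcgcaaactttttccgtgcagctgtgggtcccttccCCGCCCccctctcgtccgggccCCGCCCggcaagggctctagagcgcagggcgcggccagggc
Col16a1: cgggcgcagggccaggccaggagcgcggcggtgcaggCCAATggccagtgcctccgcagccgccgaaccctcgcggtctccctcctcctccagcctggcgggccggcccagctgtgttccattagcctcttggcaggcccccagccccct
Col8a2: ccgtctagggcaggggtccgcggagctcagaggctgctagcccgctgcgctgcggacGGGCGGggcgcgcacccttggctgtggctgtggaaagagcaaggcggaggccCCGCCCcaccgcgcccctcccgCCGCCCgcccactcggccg

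The promoter of Col3a1 had 37.3% G and C and held neither motif. That of Col6a3, with 62.7% G and C and long runs of purines, held neither as well. Col5a3 (68.7% G and C) had 1 CCAAT and 2 GC boxes, Col16a1 (74.7%) had 1 CCAAT, and Col8a2 (78.0%) had 3 GC boxes. The median over all 32851 promoters in the table was 54.0% G and C. Of these promoters 24.5% held a CCAAT and 28.6% a GC box within the same 150 bases. Promoters were found for 27 of the 35 members, some with more than 1 start, and of their 29 sequences 5 (17.2%) held a CCAAT and 14 (48.3%) a GC box. The AP-1 motif TGANTCA was in 1 of the 29 and in 4.24% of all promoters. Neither CCAAT nor the GC box was thus common to all 4 higher genes, although Col5a3 and Col16a1 both held a CCAAT. These counts describe letters in a short window, not binding.

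Among the fibril-forming collagens, 8 of 11 members were tested and 2 were higher (Col3a1 and Col5a3), against 2.93% of all genes tested. Type I collagen is the main fiber of skin and consists of 2 chains encoded by Col1a1 and 1 encoded by Col1a2. Col1a1 held 373.4, 434.9 and 476.0 normalized counts in control and 717.2, 902.4 and 696.5 in ILK-K5. Its libraries did not overlap, but its log2 fold change of 0.85 (SE 0.25) did not pass over all genes (adjusted p = 0.141, limma). Col1a2 likewise did not overlap, with 259.5, 174.9 and 176.3 in control and 622.7, 293.1 and 263.0 in ILK-K5. Its log2 fold change was 0.86 (SE 0.38, adjusted p = 0.410), and 0.47 without ILK-K5 library 1, the highest. Col5a1, the α1 chain of type V, held 389.8, 296.5 and 133.5 in control and 269.8, 288.5 and 192.9 in ILK-K5 (log2 fold change -0.01, interval -0.95 to 0.92). Col24a1, a minor fibrillar collagen, held 9.65, 44.1 and 7.26 normalized counts in control and 6.83, 6.94 and 3.90 in ILK-K5. All ILK-K5 libraries of Col24a1 lay below control, by less than 1 normalized count at the closest, and its log2 fold change of -1.23 had an adjusted p = 0.699. For Col27a1 it was 1.16 (adjusted p = 0.618), with overlapping libraries. Col2a1, Col11a1 and Col11a2, the cartilage collagens, were too low to be tested.

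Of the fibril-associated collagens, 5 of 9 were tested and 1 was higher (Col16a1), against 2.93% of all genes tested. Col12a1, the most abundant collagen gene here, encodes a long collagen that binds type I fibrils. It held 2712, 1636 and 1816 normalized counts in control and 4665, 3741 and 3875 in ILK-K5. The 2.03-fold difference (log2 fold change 1.02, SE 0.28) separated all libraries, but had an adjusted p = 0.102 in limma. It passed in DESeq2 (adjusted p = 0.0488) and without control library 1 (0.0475, log2 fold change 1.24). Col22a1, which is known from tissue junctions, held 75.3, 48.7 and 45.7 in control and 44.4, 18.5 and 21.4 in ILK-K5, all below control (log2 fold change -1.05, adjusted p = 0.479). Col14a1, a relative of Col12a1, had overlapping libraries with 69.5, 74.5 and 153.1 against 115.0, 74.8 and 94.5 normalized counts (log2 fold change 0.01, adjusted p = 0.998). Col9a3 also overlapped (log2 fold change -0.59), and 6.07% of its exon bases lie in exons of Tcfl5. The remaining classes had little signal, and of their 6 members 2 were tested. The transmembrane Col23a1 ranged from 24.3 to 134.1 normalized counts in control and from 29.3 to 43.3 in ILK-K5 (log2 fold change -0.80, adjusted p = 0.759). The multiplexin Col15a1 ranged from 0 to 34.7 in control and from 13.6 to 29.3 in ILK-K5 (log2 fold change 2.03, adjusted p = 0.618), and its log2 fold change was 0.84 without control library 2, 3.42 without control library 1, 0.73 in edgeR and 0.70 in DESeq2.

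Summed over all 35 members, collagen FPKM was 65.5 to 72.7 in control and 82.0 to 97.9 in ILK-K5 libraries, without overlap. The make-up of this sum differed between the genotypes. Fibril-forming members took 27.9% ± 2.17 of it in control and 37.7% ± 4.54 in ILK-K5 (SD, n = 3), and fibril-associated members 26.6% ± 6.12 and 38.6% ± 3.12. In absolute terms, fibril-forming members summed to 16.9 to 21.9 FPKM in control and 27.0 to 41.1 in ILK-K5. Fibril-associated members summed to 14.5 to 23.2 FPKM and 32.3 to 40.4. Col8a1 and Col8a2 together took 26.1% ± 9.61 of the collagen signal in control, but 8.32% ± 1.18 in ILK-K5. Col3a1 went from 0.716% ± 0.683 to 7.88% ± 3.21, and Col12a1 from 19.7% ± 5.10 to 30.3% ± 2.77. For the shares of Col3a1, Col12a1, the fibril-forming and the fibril-associated class all ILK-K5 libraries were above all control libraries, and for type VIII all were below. These sums and shares are descriptions of the libraries, and no test was made of them.

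Since the chains of a collagen type are assembled together, 6 pairs of chains of 1 type were compared as log2 ratios of their normalized counts (+ 1) within each library. Normalized counts are not corrected for gene length, so that the level and sign of a ratio do not tell which chain was more abundant. Only the difference of a ratio between the genotypes is read here. Col6a3 over Col6a1 was -3.92, -4.90 and -3.38 in control and 0.88, -0.85 and -1.33 in ILK-K5. The difference of 3.63 separated all libraries (exact permutation test, two-sided, p = 0.1, the smallest value that 3 against 3 libraries allow, adjusted p = 0.3 over 6 pairs). Col5a3 over Col5a1 was -5.49, -8.22 and -4.31 in control, where control library 2 had no Col5a3 read, and -2.12, -2.32 and -2.02 in ILK-K5. It likewise separated all libraries, by 3.85 (exact permutation p = 0.1, adjusted p = 0.3). For Col8a2 over Col8a1 the ratio was 0.66, -1.39 and 0.30 in control and -2.15, -1.34 and -1.02 in ILK-K5. The genotypes overlapped here through control library 2, in which Col8a1 was high (difference -1.36, exact permutation p = 0.3, adjusted p = 0.45). The other pairs differed by less than their spread, with a difference of 0.01 for Col1a2 over Col1a1 (exact permutation p = 0.9), 0.18 for Col5a2 over Col5a1 (p = 0.9) and 0.19 for Col6a2 over Col6a1 (p = 0.2). With 3 libraries per genotype none of these ratios could pass an adjusted p-value of 0.05.

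**Figure D3:**
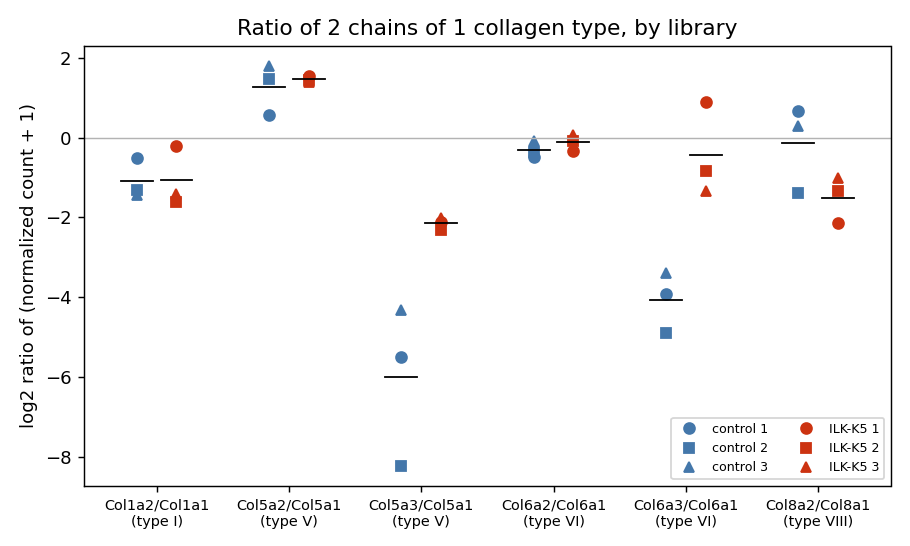
Log2 ratio of the normalized counts (+ 1) of chains of the same collagen type, one point per library (blue, control; red, ILK-K5; the symbol marks the replicate number) and a line at the mean of each genotype. Ratios are not corrected for gene length, so that their level and sign do not rank the chains. The ratios of Col6a3 to Col6a1 and of Col5a3 to Col5a1 separate the genotypes by 3.63 and 3.85, whereas Col1a2 to Col1a1, Col5a2 to Col5a1 and Col6a2 to Col6a1 differ by 0.01 to 0.19.

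Collagen chains are hydroxylated, glycosylated and folded in the endoplasmic reticulum. Of 19 genes for these enzymes and chaperones, 18 were tested and 0 were called in limma, with 1 at an unadjusted p-value under 0.05 (P3h1, adjusted p = 0.321). Their median log2 fold change was 0.32. The most abundant by FPKM were P4hb, a subunit of prolyl 4-hydroxylase, with 38.3 FPKM in control and 55.1 in ILK-K5 (log2 fold change 0.57, adjusted p = 0.792), and P3h2, a prolyl 3-hydroxylase, with 37.1 and 54.4 FPKM (0.55, adjusted p = 0.614). Libraries of both genes overlapped between the genotypes.

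Secreted procollagens are trimmed by proteases and cross-linked. Of 14 such genes 11 were tested and 1 was called, where 3.53% of all genes tested were. It was Tgm2, which encodes transglutaminase 2, an enzyme that cross-links matrix proteins and is also abundant in macrophages and endothelium. Its normalized counts were 9.65, 3.04 and 11.6 in control and 186, 192 and 127 in ILK-K5, well apart. The log2 fold change was 4.35 (SE 0.56, adjusted p = 0.0026, limma). With a control mean below 10 normalized counts, Tgm2 passed the filter only through ILK-K5, which fixed its sign. For Bmp1, the protease that removes the C-propeptide, the log2 fold change was 1.03 (adjusted p = 0.233), and for Loxl2, a lysyl oxidase, 2.15 (adjusted p = 0.167). Of the 11 log2 fold changes of this list 8 were positive and 3 negative, with a median of 0.50 and a range of -2.55 to 4.35. In limma 4 of these genes had an unadjusted p-value under 0.05. Lox itself held at most 10.03 normalized counts and was not tested.

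Among 14 small proteoglycans and glycoproteins that bind collagen fibrils, 9 were tested. Of these 1 was higher and 1 was lower, against 2.93% and 0.599% of all genes tested. The 9 log2 fold changes were positive for 4 and negative for 5 genes, with a median of -0.50. In limma 4 genes had an unadjusted p-value under 0.05, and the lowest log2 fold change, -3.33, was not called. Dpt, encoding dermatopontin, held 0, 0 and 2.18 normalized counts in control and 31.9, 35.5 and 14.6 in ILK-K5. As every control library had at most 3 reads, it was at least 8.51-fold higher (adjusted p = 0.0369, limma). Dpt passed the filter only through ILK-K5, so that its sign was fixed. Its call was lost with a pseudocount of 0.1 (adjusted p = 0.109), with replicates 2 and 3 alone (0.0995), when control library 2 was left out (0.0981), and when any ILK-K5 library was (0.166, 0.255 and 0.128). Aspn, encoding the small leucine-rich proteoglycan asporin, fell from 491, 344 and 257 to 113, 71.0 and 84.7 normalized counts (log2 fold change -1.99, SE 0.35, adjusted p = 0.0148). Without control library 2 or ILK-K5 library 2 or 3 the adjusted p of Aspn was 0.0734, 0.0816 and 0.0696, with the log2 fold change at -1.84 or below. Lum, encoding lumican, had no read in any control library and 19.4, 10.8 and 5.84 normalized counts in ILK-K5, and was too low to be tested.

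Of 11 collagen receptors 8 were tested and 1 was higher, where 2.93% of all genes tested were. This was Lair1, an inhibitory collagen receptor of leukocytes. It held 0, 0 and 0.726 normalized counts in control and 159, 218 and 129 in ILK-K5, at least 52.6-fold higher (adjusted p = 3.77e-04, limma). Lair1 passed the filter only through ILK-K5, so that its sign was fixed by the filter. The collagen-binding integrins were not called. The log2 fold change was 0.92 for Itga1 (adjusted p = 0.163), -0.46 for Itga2 (adjusted p = 0.666) and 0.18 for Itgb1, their common β chain (adjusted p = 0.885). For Ddr1, the discoidin domain receptor of epithelia, it was 0.42 (adjusted p = 0.717).

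**Figure D4:**
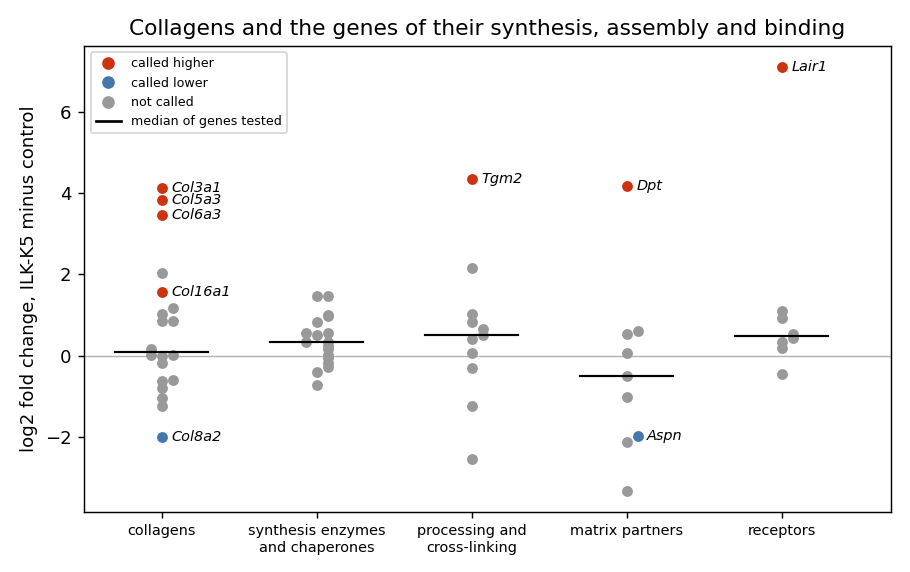
Log2 fold change of ILK-K5 over control for each tested gene of 4 lists of the collagen pathway and, for comparison, the tested collagens; red (higher) and blue (lower) genes passed an adjusted p-value of 0.05 over all genes tested, grey ones did not, and a line marks the median of each list. Called genes outside the collagens are Tgm2, Dpt, Aspn and Lair1, and none is an enzyme of collagen synthesis.

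Markers of other cell types were read beside these values, because collagens are abundant in other cells of the skin. Of 15 fibroblast markers 7 were tested, 6 of them with a positive log2 fold change (median 0.61). In limma 3 had an unadjusted p-value under 0.05 and 1 was called, Dpt. Dpt and Pdgfrb passed the filter only through ILK-K5, so that their positive signs were fixed. Pdgfrb, at the floor of 3 reads in control, was at least 6.21-fold higher but not called in limma (adjusted p = 0.0519). It was called in 8 of 11 other settings, edgeR (0.0442) and DESeq2 (0.0077) among them. With 1 library left out it was called in only 2 of 6 fits. Its adjusted p was 0.108 without control library 2, and 0.188, 0.340 and 0.205 without ILK-K5 libraries 1, 2 and 3. With a pseudocount of 0.1, a filter at 50 or replicates 2 and 3 alone no fibroblast marker was called in limma. Clec3b had no read in any library and Lum none in control, Pdgfra did not exceed 12.5 normalized counts, and Dcn (log2 fold change 0.61, adjusted p = 0.852) and Fbln1 overlapped between the genotypes. The summed level of the list was 15.2 to 26.0 FPKM in control and 19.9 to 36.6 in ILK-K5, and 3 of its genes (Dpt, Dcn and Lum) are also in the list of fibril-binding proteins. Of 13 dermal papilla markers 9 were tested and 2 were called, against 3.53% of all genes tested. Vcan was higher, with 17.4, 16.7 and 28.3 against 357, 177 and 151 normalized counts (log2 fold change 3.33, adjusted p = 0.0040). Hey1 was lower, with 51.1, 54.7 and 63.1 against 7.97, 3.09 and 11.7 (log2 fold change -2.88, adjusted p = 0.0336). The call of Hey1 was lost with a pseudocount of 0.1 (adjusted p = 0.0508), with replicates 2 and 3 alone (0.0886) and without any 1 library (0.0558 to 0.132, log2 fold change -3.24 to -2.42). Sox2 had no read in any library, Sox18 had none in control, and the summed level was 22.7 to 42.4 FPKM in control and 42.8 to 45.5 in ILK-K5. The part of these cell types in the collagen values was not tested.

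Macrophage markers differed between the same libraries. All 12 rose (limma, median log2 fold change 6.26), where 2.93% of all genes tested were called higher. Their summed level was 14.9 to 15.3 FPKM in control and 640 to 952 FPKM in ILK-K5. Fcgr1 was at 0 in all control libraries, so that it passed the filter only through ILK-K5. Markers of mural cells (5 tested of 9), of endothelium (3 of 10) and of melanocytes and Schwann cells (6 of 9) gave 0 calls in limma, with 1 gene each at an unadjusted p-value under 0.05. In DESeq2, which called 1052 of the 16368 genes, each of these lists gave 1 call. Summed levels were 6.83 to 14.7 FPKM in control and 12.01 to 18.3 in ILK-K5 for mural cells, 2.15 to 4.06 and 2.13 to 2.60 for endothelium, and 4.86 to 9.37 and 5.58 to 11.2 for melanocytes and Schwann cells. Cldn5 of endothelium had no read in control. All 10 markers of bulge SCs were tested, where 0.599% of all genes were called lower. The sort marker Cd34 was the only one called, lower in ILK-K5 (log2 fold change -1.90, adjusted p = 0.0239). With FPKM values the call of Cd34 was lost (-1.88, adjusted p = 0.0509), as it was with replicates 2 and 3 alone (-1.47, adjusted p = 0.137) and when library 1 or 3 of either genotype was left out (-1.93 to -1.65, adjusted p = 0.0572 to 0.0877), while Itga6 was not called (log2 fold change 0.36, adjusted p = 0.699). Krt5 and Krt14 of keratinocytes were high in all 6 libraries. How far the macrophages or the lower Cd34 level bear on the collagen values was not tested.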

How the data were processed

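The 6 libraries of sorted bulge SCs (3 control, 3 ILK-K5) were made by transposition from cDNA that had been amplified from their RNA, and both ends of each fragment were sequenced. The kit is not stated to keep the strand of the RNA. After trimming of adapters and removal of ribosomal reads, the rest was aligned to GRCm38. The submitters' processing notes name TopHat2 2.0.14, Bowtie2 2.2.4, Bowtie and DESeq2 1.6.3, and the counting program is not given in the sources used here.

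The authors deposited normalized counts per gene. All values (100%, tolerance 0.01) were whole multiples of the value of 1 read. This signal, as deposited, is thus reads divided by 1 size factor per library, and the reads were recovered from it. DESeq2 is named in the processing notes, but the multiples alone do not tell which program gave the factor. FPKM values deposited by the authors equalled the normalized counts times 1 constant per gene (28957 of 28957 genes with at least 2 libraries above 0). Levels of different genes were ranked and summed only in this unit, whereas chain ratios used normalized counts, without a correction for gene length. Tables of the authors' own comparison (means, log2 fold changes, standard errors, test statistics and p-values) were not used. Symbols (42107 genes, 97.3%), coordinates and exons came from GENCODE M21 for GRCm38, and promoters from RefSeq.

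Genotypes were compared with limma 3.58.1 in R 4.3.3 (lmFit, then eBayes with trend). Values were log2(normalized count + 1), the 16368 genes averaging 10 or more normalized counts were fitted, and no replicate term was used. Calls were made with Benjamini-Hochberg adjustment over all of them and a threshold of 0.05, two-sided. Standard errors and 95% intervals come from this fit, and intervals are not adjusted for multiple tests. Fold changes are on the log2(value + 1) scale, on which the change of low genes depends on the pseudocount. For genes with at most 3 reads in each library of a genotype the fold was computed against that floor, which covers counting error only. Chain ratios used an exact permutation test. Replicate numbers come from the sample titles.

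The 18 alternatives were 2 other pseudocounts (0.1 and 5), no filter, a filter at 50, quantile and TMM scaling, FPKM values (pseudocount 0.1), edgeR 4.0.16 and DESeq2 1.42.0 on the recovered reads, a replicate block, a term for the code in the descriptions, replicates 2 and 3 only, and each of the 6 libraries left out. The fit was also run on simulated counts that held no replicate or code effect, and its outcome is not reported here. Members, gene lists, chain pairs and motifs were chosen with earlier results of these data known. Values per library are given for members that were called, that did not overlap, or that were among the 8 highest in control FPKM. Of the other lists, called genes, genes at 0 and abundant members are named. Other genes were picked with their values known. Some list genes are not reported here. Python 3.11.15, pandas 2.3.3, scipy 1.17.1 and matplotlib 3.10.9 were used.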

Additional observations from a re-analysis of the deposited data

How the results depend on the processing

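The number of genes called over all genes, 577, was 1052 in DESeq2 (772 higher, 280 lower), 1132 with a term for the code in the descriptions (846 and 286), and 254 to 656 with 1 library left out. With a replicate block it was 1117 (848 and 269), and all 577 genes were shared. Deviations from the group means correlated between libraries of the same number at 0.529, 0.0198 and 0.307, and control 2 and control 3 correlated best with ILK-K5 libraries of another number (0.0738 and 0.498), so that not every number paired its libraries. Whether the libraries share a batch by number was not tested. The block added the call of Col12a1 and lost none of the 5 collagen calls. The number of collagen genes called, 5, was 2 with replicates 2 and 3 only and 1 to 5 with 1 library left out (1 without ILK-K5 library 2, 2 without control library 2 or ILK-K5 library 1, 3 without ILK-K5 library 3). The median log2 fold change of the collagens, 0.09, was -0.19 with no filter (35 genes, -0.10 over all genes), 0.33 with replicates 2 and 3 only, and 0.11 to 0.36 with 1 library left out. Signs turned only in members that were not called. Col6a2 was -0.068 and Col14a1 -0.13 under quantile normalization, Col5a1 was 0.013 with TMM factors, and Col14a1 was -0.082 in edgeR and -0.094 in DESeq2. With replicates 2 and 3 only, Col6a1 was 0.19, Col5a1 0.24 and Col14a1 -0.34. With 1 library left out, Col5a1 ranged from -0.46 to 0.31, Col6a2 from -0.28 to 0.55, Col14a1 from -0.19 to 0.37, Col6a1 from -0.46 to 0.24 and Col5a2 from -0.020 to 0.39. The cause of these changes was not tested. Depth limits the 15 untested members and Col5a3, whose control libraries held at most 8 reads.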
